A study of Homo sapiens with 12 samples.

Results

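The cytosolic heat shock and chaperonin genes are the genes for HSP70, HSP90, small heat shock and J-domain proteins, their co-chaperones, the TRiC chaperonin, related mitochondrial chaperones and the transcription factors of the heat shock response. They were taken by name from a fixed list of 36 symbols, not by a threshold on measured values. The list was chosen with earlier results of these data known. Of the 36 symbols, 35 have a row among the 16599 genes of the count table. HSPE1 was not analysed here. All 35 genes were tested, within 15991 genes tested in all. RNA with poly(A) tails was sequenced from A549 and H1650 cells, both established lines from human lung adenocarcinoma. The 4 groups, with 3 libraries each, were A549 over-expressing SRSF2, untreated A549, H1650 over-expressing SRSF2 and untreated H1650. SRSF2 is a splicing factor of the serine/arginine-rich family. No label names the construct, the promoter or the duration of over-expression, and the meaning of NC in the titles of the untreated libraries is not given. The level of the SRSF2 transcript was not analysed here. Nothing states that the libraries of a group came from separate cultures, so the p-values reflect a spread that may be technical.

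Heat shock proteins hold unfolded or newly made proteins and help them fold. HSP70 proteins bind exposed hydrophobic stretches in a cycle of ATP hydrolysis, which J-domain proteins start and nucleotide exchange factors such as BAG proteins end. HSP90 acts later, on nearly folded clients such as kinases and steroid receptors. TRiC is a ring-shaped chaperonin of the cytosol, built from paralogous subunits, that folds actin and tubulin. Upon proteotoxic stress HSF1 trimers bind heat shock elements, inverted repeats of GAA, and raise the transcription of many of these genes, and cancer cells often depend on high chaperone levels.

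Total counts ran from 23876899 to 32079027 per library, at which 3 counts correspond to 0.126 and 0.0935 CPM (counts scaled to a common library total). Gene levels below are CPM on totals corrected by TMM factors. DNAJB4 had 6 to 21 counts per library, and each other listed gene had at least 7.35 CPM in every library. Of the 10 markers of lung epithelium, 7 were in the table. The group means of KRT7, KRT8 and KRT18 ran from 1126 to 5155 CPM, and SFTPB reached at most 0.405 CPM. EPCAM averaged 3.82 CPM in SRSF2 and 5.89 CPM in untreated A549 libraries, and 339.9 CPM in SRSF2 and 307 CPM in untreated H1650 libraries. KRT19 averaged 124 CPM in SRSF2 and 101 CPM in untreated A549 libraries, and 591 CPM in SRSF2 and 1305 CPM in untreated H1650 libraries. CDH1 averaged 26.9 CPM in SRSF2 and 39.3 CPM in untreated A549 libraries, and 1164 CPM in SRSF2 and 1310.4 CPM in untreated H1650 libraries. The summed epithelial markers were 9498 to 9576 CPM in A549 SRSF2 against 9818 to 10459 CPM in untreated A549 libraries, and 9325 to 9843 CPM in H1650 SRSF2 against 10194 to 10382 CPM in untreated H1650 libraries. Fibroblast markers (2 of 6 in the table) summed to 8.63 to 10.3 CPM in A549 SRSF2 against 12.2 to 14.99 CPM in untreated A549, and to 19.1 to 20.6 CPM in H1650 SRSF2 against 21.4 to 22.7 CPM in untreated H1650. CD14, the 1 of 5 leukocyte markers in the table, was 3.56 to 4.07 CPM in A549 SRSF2 against 5.51 to 6.58 CPM in untreated A549, and at most 0.597 CPM in H1650. Endothelial (0 of 4 in the table) and erythroid (0 of 3) markers were not analysed here. The part of these shifts in the results was not tested. H1650 SRSF2 replicate 3 stood apart from replicates 1 and 2 on the second principal component of all libraries (-33.8 against -45.2 and -42.2), and its HSPA8 level was 1.23 times the mean of the other two. Calls in H1650 that changed without it (CDC37 and CCT4) are named beside these genes. The tests below share 1 estimate of the spread over the 4 groups. Estimated for each group alone, the common coefficient of variation was 0.056 in H1650 SRSF2 and 0.034 in A549 SRSF2 libraries. It was 0.034 in untreated H1650 and 0.030 in untreated A549 libraries, so SE and p-values in H1650 may understate the spread.

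The promoter sequences that match a strict form of the heat shock element are shown first, because such elements are the binding sites of HSF1. RefSeq windows of 250 bases before to 50 bases after a transcription start (GRCh38.p14) were found for 31 of the 35 genes. The element searched was GAA, 2 bases of any kind, TTC, 2 bases of any kind and GAA, on both strands. It lay in a window of 7 of the 31 genes (22.6%), against 166 of 27305 genes in the whole table of windows (0.608%). The stretches, 5′ to 3′ on the strand of the gene and with the element in capitals, were as follows.
HSPA8 proximal: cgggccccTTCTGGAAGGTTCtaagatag
HSPA8 distal: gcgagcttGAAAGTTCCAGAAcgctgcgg
HSP90AA1: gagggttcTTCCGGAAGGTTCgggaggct
HSP90AB1 distal: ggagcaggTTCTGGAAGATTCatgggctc
HSP90AB1 proximal: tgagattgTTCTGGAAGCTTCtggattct
DNAJA1: gccgggcgGAACTTTCCAGAAcgctcggt
DNAJB6: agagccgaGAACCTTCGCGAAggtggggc
CHORDC1: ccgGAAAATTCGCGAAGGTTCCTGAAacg
HSPD1: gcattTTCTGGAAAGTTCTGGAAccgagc
These stretches lie at chr11:123062171-123062199 and chr11:123062346-123062374 (HSPA8, minus strand), chr14:102087112-102087140 (HSP90AA1, minus strand), chr6:44247770-44247798 and chr6:44247823-44247851 (HSP90AB1, plus strand). The others lie at chr9:33025268-33025296 (DNAJA1, plus strand), chr7:157336865-157336893 (DNAJB6, plus strand), chr11:90223084-90223112 (CHORDC1, minus strand) and chr2:197500062-197500090 (HSPD1, minus strand). CHORDC1 holds 3 overlapping elements and HSPD1 2. Each stretch lies inside the GENCODE 29 span of its gene. All 29 bases of each stretch of HSPA8, HSP90AA1, DNAJA1, CHORDC1 and HSPD1 lie within an exon of some GENCODE 29 transcript. The DNAJA1 element begins just after the transcription start. Proximal and distal refer to the start of the window. Genes with the element did not share 1 response. HSPA8, HSP90AB1 and HSPD1 fell in both lines, and DNAJB6 rose in both. DNAJA1 fell in A549 and rose in H1650, HSP90AA1 fell in A549 and was not called in H1650, and CHORDC1 rose in H1650 and was not called in A549. HSPA1A, HSPA1B, HSPB1, DNAJB1, BAG3 and HSPH1 had no match to this element. The shorter GAA, 2 bases of any kind and TTC lay in windows of 13 genes (41.9%, against 8.21% of all genes with windows). HSPA1A, HSPA1B, HSPB1 and DNAJB1 were among these. TTC, 2 bases of any kind and GAA lay in windows of 11 (35.5%, against 9.46%). Genes without the longer match may thus still carry a shorter form. A match is a description of the sequence and not evidence of binding.

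In A549, SRSF2 over-expression went with lower levels of most of the listed genes, from the inducible HSP70 genes through both HSP90 genes to TRiC. Of the 35 genes, 21 fell and 2 rose at an edgeR adjusted p under 0.05, against 15.9% and 16.4% of all genes tested (32.3% in either direction). The changes were small: the median log2 fold change (SRSF2 over untreated) was -0.11, against 0.0021 over all genes. Of the 35 genes, 2 were called and changed by 0.5 or more on the log2 scale, against 7.34% of all genes tested. In H1650 the same list split, with 11 genes higher and 13 lower, against 31.0% and 31.3% of all genes (62.3% in either direction), and a median of 0.012, against 0 over all genes. There 7 genes changed by 0.5 or more (29.9% of all genes), and without H1650 SRSF2 replicate 3 the counts were 13 higher and 13 lower. With the log2(FPKM + 1) values the split in H1650 was 8 higher and 15 lower. When only the 10416 genes with at least 10 CPM in 3 libraries were fitted, 44.7% were called in A549 and 76.0% in H1650. The list had 65.7% and 68.6% called in the main fit, which is another fit, so these shares do not compare like with like. The fit of the 10416 genes leaves out DNAJB4. In it PTGES3 was also called lower in A549 (edgeR adjusted p = 0.0434). CCT4 and CDC37 were also called higher in H1650 there (edgeR adjusted p = 0.0419 and 0.0187). The summed level of the list was 15644 ± 167 CPM in SRSF2 and 17490.5 ± 261 CPM in untreated A549 libraries, and 12234 ± 264 CPM in SRSF2 and 13385 ± 108 CPM in untreated H1650 libraries (SD, n = 3 each). Most of the net fall of the sum in H1650 came from HSPB1 (1317 CPM in SRSF2, 1979 CPM untreated) and HSPA8 (787 and 1163 CPM). In bulk RNA, fewer cells expressing a gene and less RNA per cell cannot be told apart.

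**Figure D1:**
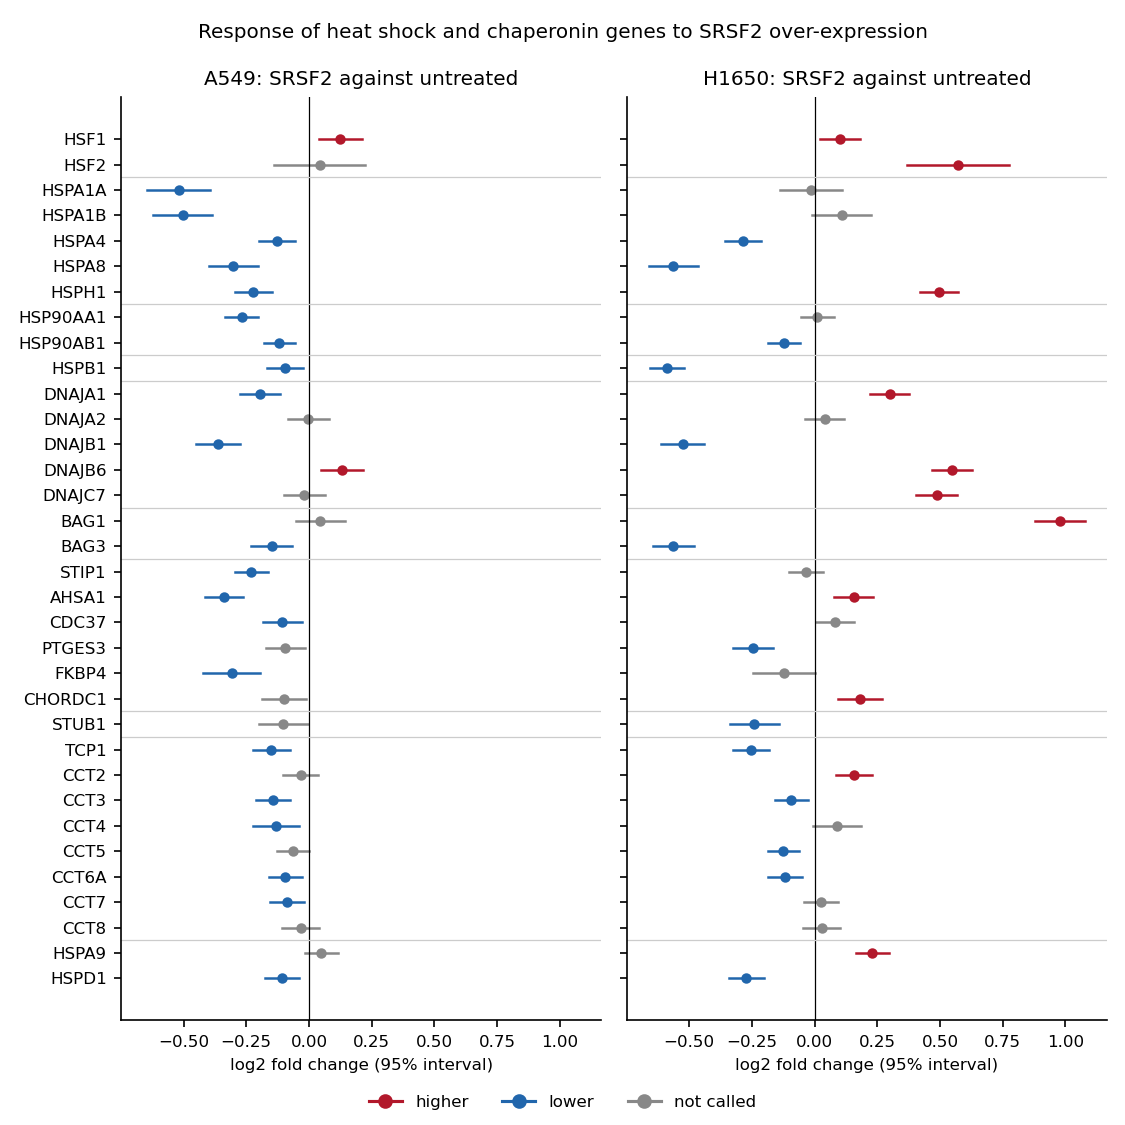
Log2 fold change of each gene, SRSF2 against untreated, in A549 (left) and H1650 (right); points are edgeR estimates, bars 95% intervals not adjusted for the number of genes, colours the call at an adjusted p under 0.05, and grey lines separate the roles. DNAJB4, with 6 to 21 counts per library, is left out. The left panel lies mostly below 0, while BAG1 (0.98) and HSPB1 (-0.59) mark the ends of the right panel.

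HSF1, the main activator of the response, rose slightly in both lines, and HSF2, a related factor that can form trimers with it, rose in H1650. HSF1 had 118, 115 and 124 CPM in A549 SRSF2 libraries, against 112, 112 and 103 CPM in untreated A549 libraries (log2 fold change 0.12, SE 0.042, adjusted p = 0.0209). H1650 libraries gave 255, 258 and 250.2 CPM with SRSF2, against 239.6, 228 and 244 CPM untreated (log2 fold change 0.10, SE 0.039, adjusted p = 0.0267). The SRSF2 libraries were above the untreated ones in each line, by a small step. These small calls were lost with median-ratio scaling in A549 (0.10, adjusted p = 0.0572) and with upper-quartile scaling in H1650 (0.087, adjusted p = 0.0520). With the FPKM values the change of HSF1 in H1650 was 0.019 (pseudocount 1, adjusted p = 0.692) and 0.021 (pseudocount 0.1, adjusted p = 0.701). The HSF1 call was also lost in A549 without untreated replicate 3 or SRSF2 replicate 3, and in H1650 without untreated replicate 1, untreated replicate 2 or SRSF2 replicate 2. HSF2 had 13.9, 12.1 and 10.1 CPM in H1650 SRSF2 libraries, against 8.48, 8.27 and 7.35 CPM in untreated H1650 libraries (log2 fold change 0.57, SE 0.10, adjusted p = 6.38e-06). All 3 SRSF2 libraries were above all untreated ones, replicate 3 the least, and without that library the log2 fold change was 0.69. In A549 the HSF2 groups overlapped, with 17.3, 16.2 and 15.2 CPM in SRSF2 and 16.3, 15.5 and 15.5 CPM in untreated libraries (log2 fold change 0.043, SE 0.089, adjusted p = 0.759).

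All 5 HSP70 and HSP110 genes fell in A549, while in H1650 2 fell, 1 rose and 2 were not called. Of all genes tested, 15.9% fell in A549, and 31.3% fell and 31.0% rose in H1650. HSPA1A and HSPA1B (ENSG00000204389, chr6:31815464-31817946 and ENSG00000204388, chr6:31827735-31830255) encode the stress-inducible HSP70 and lie side by side. HSPA1A had 105, 110.2 and 123 CPM in A549 SRSF2 libraries, against 161, 156 and 168 CPM in untreated A549 libraries (log2 fold change -0.52, SE 0.062, adjusted p = 3.26e-08). HSPA1B had 97.7, 101 and 107 CPM with SRSF2, against 139.7, 145 and 149 CPM untreated (log2 fold change -0.50, SE 0.058, adjusted p = 1.76e-08). Both genes were the lowest of the list in A549 by log2 fold change, and no SRSF2 library reached the lowest untreated library. In H1650 the groups of both overlapped. HSPA1A there had 127, 154 and 163 CPM in SRSF2 and 142, 146 and 160.1 CPM in untreated libraries (log2 fold change -0.013, SE 0.061, adjusted p = 0.875). There HSPA1B had 98, 114 and 124 CPM in SRSF2 and 95.6, 104 and 112 CPM in untreated libraries (log2 fold change 0.11, SE 0.058, adjusted p = 0.105). HSPA1B was called higher in H1650 without SRSF2 replicate 1 (0.19, adjusted p = 0.00158) and without untreated replicate 3 (0.16, adjusted p = 0.0271). Without SRSF2 replicate 3 of H1650 it was 0.024 (adjusted p = 0.736), and HSPA1A was -0.094 (adjusted p = 0.178). The coding sequences of the pair are identical at 1919 of 1923 positions, with a longest identical run of 1709 bases, so the split of reads between them is uncertain. HSPA1B also shares 36.5% of its exon bases with the transcript AL671762.1 on the same strand. Their sum was 203 to 231 CPM in A549 SRSF2 against 301 to 317 CPM in untreated A549 libraries, and 225 to 287 CPM in H1650 SRSF2 against 238 to 272 CPM in untreated H1650 libraries.

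HSPA8, the constitutive HSP70 of the cytosol, fell in both lines and had the highest level per kb of exon among the HSP70 and HSP110 genes in all 4 groups. It had 1837, 1775 and 1784 CPM in A549 SRSF2 libraries, against 2249, 2159.8 and 2239 CPM in untreated A549 libraries (log2 fold change -0.30, SE 0.048, adjusted p = 7.14e-06). In H1650 it had 696, 767 and 899 CPM with SRSF2, against 1144, 1162 and 1183 CPM untreated (log2 fold change -0.56, SE 0.049, adjusted p = 3.55e-12). The groups did not overlap in either line, replicate 3 of H1650 SRSF2 was the highest of its group, and without it the log2 fold change in H1650 was -0.67. HSPA8 has 17 pseudogenes named after it, so part of its reads may have been left out or counted elsewhere. HSPA4, an HSP110-type exchange factor for HSP70, was 354 ± 4.18 CPM in SRSF2 and 387 ± 4.24 CPM in untreated A549 libraries (log2 fold change -0.13, SE 0.035, adjusted p = 0.00457). In H1650 HSPA4 was 208 ± 6.45 CPM in SRSF2 and 253 ± 5.69 CPM in untreated H1650 libraries (log2 fold change -0.28, SE 0.035, adjusted p = 1.44e-08). HSPH1, the other HSP110 gene, went in opposite directions in the lines. It had 263, 259 and 259 CPM in A549 SRSF2 libraries, against 298, 300.2 and 314 CPM in untreated A549 libraries (log2 fold change -0.22, SE 0.036, adjusted p = 9.10e-06). Its H1650 levels were 198, 191 and 203 CPM with SRSF2, against 139, 143 and 138 CPM untreated (log2 fold change 0.50, SE 0.037, adjusted p = 1.07e-13). Every SRSF2 library was below the untreated ones in A549 and above them in H1650, and the difference of the changes, A549 minus H1650, was -0.72 (SE 0.052, adjusted p = 1.45e-13).

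**Figure D2:**
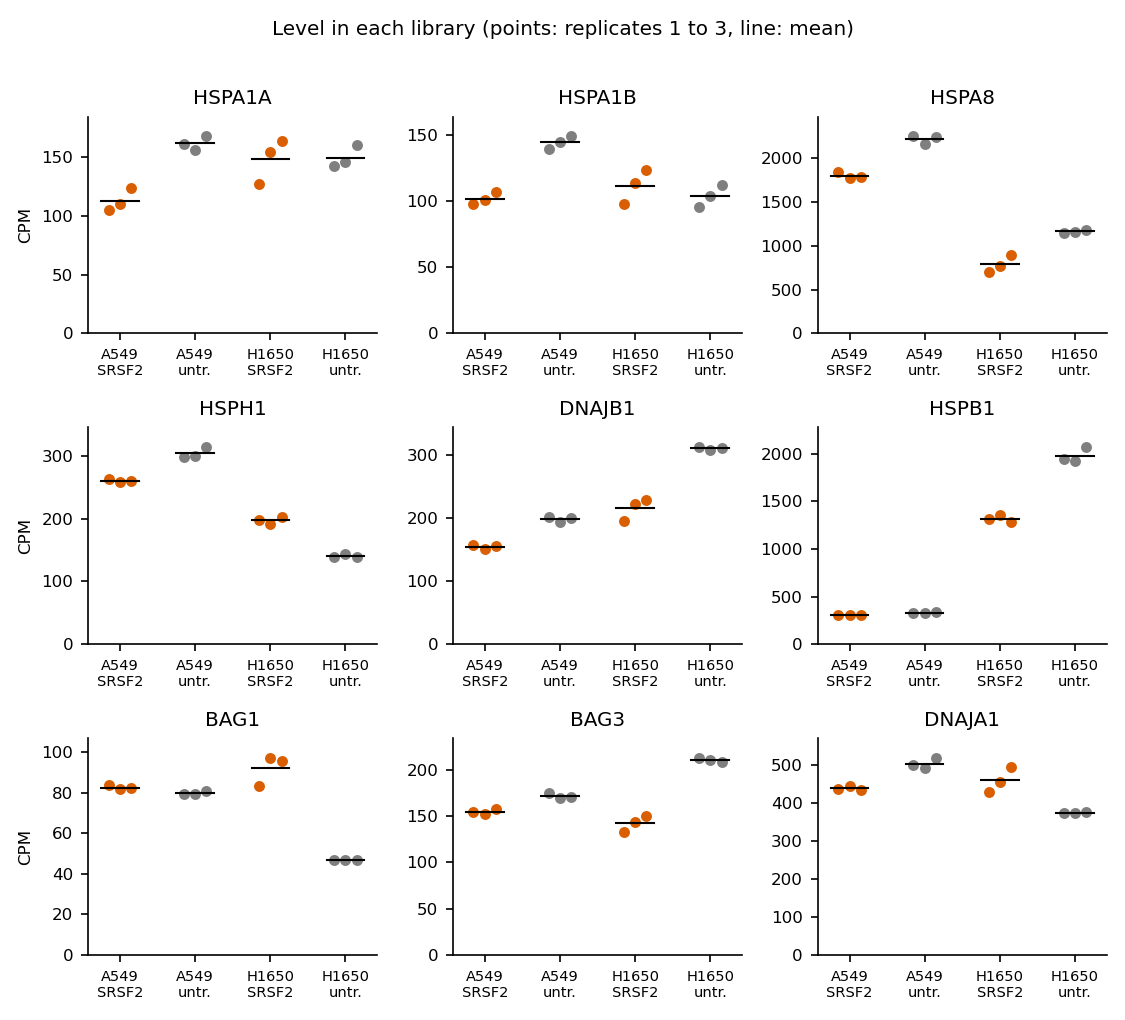
CPM of 9 genes in each library (y axis from 0), with A549 and H1650 SRSF2 libraries (orange) left of the untreated libraries (grey) of the same line; points are replicates 1 to 3 and lines the means. HSPH1 and DNAJA1 are lower with SRSF2 in A549 and higher in H1650, and BAG1 separates in H1650, with 83.2 to 97.1 CPM in SRSF2 and 46.6 to 46.9 CPM in untreated libraries.

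Of the 6 J-domain genes, whose proteins deliver clients to HSP70 and start its ATP hydrolysis, 1 rose and 2 fell in A549, and 3 rose and 1 fell in H1650. The shares of all genes that rose and fell were 16.4% and 15.9% in A549, and 31.0% and 31.3% in H1650. DNAJB1, the main stress-inducible J protein of the cytosol, had 157, 151 and 155 CPM in A549 SRSF2 libraries, against 201, 194 and 199.8 CPM in untreated A549 libraries (log2 fold change -0.36, SE 0.044, adjusted p = 4.36e-08). Its levels in H1650 were 195, 223 and 229 CPM with SRSF2, against 312, 308 and 311 CPM untreated (log2 fold change -0.53, SE 0.042, adjusted p = 6.27e-13). In both lines every SRSF2 library was below the untreated libraries of the same line for DNAJB1. DNAJA1, a J protein that works with HSPA8 in refolding and import, had 437, 445 and 433 CPM in A549 SRSF2 libraries, against 499, 491 and 518 CPM in untreated A549 libraries (log2 fold change -0.20, SE 0.039, adjusted p = 1.43e-04). In H1650 DNAJA1 had 429.7, 455 and 494 CPM with SRSF2, against 372, 372 and 376 CPM untreated (log2 fold change 0.30, SE 0.039, adjusted p = 3.30e-08), so that its groups separated in opposite directions in the lines. DNAJB6, which suppresses the aggregation of polyglutamine proteins, had 341, 306 and 311 CPM in H1650 SRSF2 libraries, against 224, 213 and 218 CPM in untreated H1650 libraries (log2 fold change 0.55, SE 0.040, adjusted p = 3.54e-14). In A549 it was 150.2, 144 and 152 CPM with SRSF2, against 137, 134 and 136 CPM untreated (log2 fold change 0.13, SE 0.041, adjusted p = 0.0130), and this smaller rise was not called with log2(FPKM + 1), without untreated replicate 2 or without SRSF2 replicate 3 of A549. DNAJC7, which binds both HSP70 and HSP90, had 116, 120.4 and 116 CPM in H1650 SRSF2 libraries, against 85.7, 85.9 and 80.0 CPM in untreated H1650 libraries (log2 fold change 0.49, SE 0.041, adjusted p = 1.39e-12). In A549 DNAJC7 was 122 ± 1.45 CPM in SRSF2 and 124 ± 0.997 CPM in untreated A549 libraries (log2 fold change -0.019, SE 0.040, adjusted p = 0.758). DNAJA2, a close relative of DNAJA1, had intervals of -0.082 to 0.078 in A549 and -0.036 to 0.12 in H1650 and was called in neither line, and DNAJB4 was at or below 0.675 CPM in every library.

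The exchange factors BAG1 and BAG3, which release the client from HSP70, moved apart in H1650. BAG1 links HSP70 to the proteasome, and BAG3 is a stress-inducible factor that links HSP70 and small heat shock proteins to selective autophagy. BAG1 (ENSG00000107262, chr9:33247820-33264720) had 83.2, 97.1 and 95.5 CPM in H1650 SRSF2 libraries, against 46.7, 46.6 and 46.9 CPM in untreated H1650 libraries (log2 fold change 0.98, SE 0.049, adjusted p = 2.33e-18), the largest rise in the list at 1.97-fold. BAG3 (ENSG00000151929, chr10:119651370-119677819) had 133, 144 and 151 CPM with SRSF2, against 213, 211 and 209 CPM untreated (log2 fold change -0.56, SE 0.040, adjusted p = 2.67e-14). Every SRSF2 library was above the untreated ones for BAG1 and below them for BAG3, and without H1650 SRSF2 replicate 3 the log2 fold changes were 0.95 and -0.61. In A549 BAG3 had 154, 152 and 158 CPM in SRSF2 and 175, 169 and 171 CPM in untreated libraries (log2 fold change -0.15, SE 0.040, adjusted p = 0.00426). BAG1 had 83.6, 81.7 and 82 CPM in A549 SRSF2 and 79.4, 79.3 and 80.8 CPM in untreated A549 libraries, which did not overlap but were not called (log2 fold change 0.046, SE 0.048, adjusted p = 0.510). HSPB8, a small heat shock protein that acts in a complex with BAG3, was outside the list of 36 and rose in both lines. It had 299, 287 and 251 CPM in H1650 SRSF2 libraries, against 50.3, 50.4 and 51.8 CPM in untreated H1650 libraries (log2 fold change 2.45, SE 0.052, adjusted p = 5.51e-29). HSPB8 had 26, 28.8 and 28.5 CPM in A549 SRSF2 libraries, against 16.6, 15.5 and 16.7 CPM in untreated A549 libraries (log2 fold change 0.77, SE 0.069, adjusted p = 6.01e-11). HSPB1 (HSP27), the abundant small heat shock protein of the list, went the other way. HSPB1 had 1316, 1354 and 1282 CPM in H1650 SRSF2 libraries, against 1943, 1921 and 2072 CPM in untreated H1650 libraries (log2 fold change -0.59, SE 0.034, adjusted p = 8.17e-17). The A549 libraries gave 305, 304 and 311 CPM with SRSF2, against 324, 324 and 335 CPM untreated (log2 fold change -0.097, SE 0.035, adjusted p = 0.0314). This call was lost when any library of A549 other than SRSF2 replicate 3 was left out.

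Both HSP90 genes and 4 of their 6 co-chaperones fell in A549, with 0 higher, while in H1650 1 of the HSP90 genes fell and the co-chaperones gave 2 higher and 1 lower. All genes tested gave 16.4% higher and 15.9% lower in A549, and 31.0% higher and 31.3% lower in H1650. HSP90AA1, the stress-inducible HSP90, had 2333, 2288 and 2269 CPM in A549 SRSF2 libraries, against 2749, 2701 and 2848 CPM in untreated A549 libraries (log2 fold change -0.27, SE 0.032, adjusted p = 4.28e-08). In H1650 its groups overlapped, with 1064, 1066 and 1134 CPM in SRSF2 and 1077, 1101 and 1059.7 CPM in untreated libraries (log2 fold change 0.012, SE 0.032, adjusted p = 0.775). HSP90AB1, the constitutive form, was 2234 ± 11.8 CPM in SRSF2 and 2426 ± 19 CPM in untreated A549 libraries (log2 fold change -0.12, SE 0.030, adjusted p = 0.00265). In H1650 it was 1516 ± 53.9 CPM in SRSF2 and 1649 ± 0.618 CPM in untreated H1650 libraries (log2 fold change -0.12, SE 0.031, adjusted p = 8.22e-04). The 95% interval of the difference of these changes, A549 minus H1650, was -0.085 to 0.091. The ratio of HSP90AA1 to HSP90AB1 levels, not corrected for length, was 1.03 ± 0.0125 in SRSF2 and 1.14 ± 0.0241 in untreated A549 libraries, and 0.717 ± 0.00973 in SRSF2 and 0.654 ± 0.0126 in untreated H1650 libraries (SD, n = 3 each). These ratios did not overlap in either line, and an exact two-sided permutation test of 3 against 3 libraries cannot give a p below 0.1.

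Among the co-chaperones, AHSA1 speeds up the ATPase of HSP90 and changed in opposite directions. It had 216, 215 and 222 CPM in A549 SRSF2 libraries, against 276, 274 and 276 CPM in untreated A549 libraries (log2 fold change -0.34, SE 0.037, adjusted p = 5.05e-09). Its H1650 values were 131, 139.7 and 143 CPM with SRSF2, against 122, 126 and 123 CPM untreated (log2 fold change 0.16, SE 0.038, adjusted p = 6.47e-04). With log2(FPKM + 1) the change in H1650 was 0.067 (adjusted p = 0.0900). STIP1 (HOP), which bridges HSP70 and HSP90, was 459 ± 3.03 CPM in SRSF2 and 539 ± 4.71 CPM in untreated A549 libraries (log2 fold change -0.23, SE 0.032, adjusted p = 7.21e-07), and was not called in H1650 (log2 fold change -0.034, SE 0.033, adjusted p = 0.383). With log2(FPKM + 1) STIP1 was called lower in H1650 as well (-0.11, adjusted p = 6.14e-05). FKBP4, an immunophilin of steroid receptor complexes, was 40.8 ± 3.01 CPM in SRSF2 and 50.5 ± 0.526 CPM in untreated A549 libraries (log2 fold change -0.31, SE 0.055, adjusted p = 4.02e-05), and was not called in H1650 (log2 fold change -0.12, SE 0.061, adjusted p = 0.0803). In H1650 FKBP4 was called lower with log2(FPKM + 1) (-0.14, adjusted p = 0.0103). CDC37, which brings kinases to HSP90, fell slightly in A549 (log2 fold change -0.11, SE 0.038, adjusted p = 0.0327), a call lost without any one of 5 of the 6 A549 libraries, and was 0.081 in H1650 (adjusted p = 0.0593). Without SRSF2 replicate 3 or untreated replicate 3 of H1650, CDC37 was called higher there (0.11, adjusted p = 0.0149, and 0.10, adjusted p = 0.0325). PTGES3 (p23), which stabilises the closed state of HSP90, fell in H1650, with 236, 239.8 and 239 CPM in SRSF2 and 273, 293 and 281 CPM in untreated libraries (log2 fold change -0.24, SE 0.039, adjusted p = 1.39e-06), and missed the threshold in A549 (log2 fold change -0.094, SE 0.038, adjusted p = 0.0563). CHORDC1, a zinc-binding partner of HSP90, rose in H1650, with 112, 110.4 and 106 CPM in SRSF2 and 97.9, 99.2 and 92.2 CPM in untreated libraries (log2 fold change 0.18, SE 0.043, adjusted p = 4.39e-04), and was -0.099 in A549 (adjusted p = 0.0716). STUB1 (CHIP), the ubiquitin ligase that marks clients of HSP70 and HSP90 for degradation, fell in H1650 (log2 fold change -0.24, SE 0.047, adjusted p = 4.65e-05) and was -0.10 in A549 (adjusted p = 0.102). STUB1 shares 42.4% of its exon bases with JMJD8 on the opposite strand, and whether counting used strand is not given in the sources used here, so its values may hold reads of that gene.

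The 8 subunit genes of TRiC, which occupy fixed places in each ring, moved little: 5 fell and 0 rose in A549, and 4 fell and 1 rose in H1650. Their summed level was 3402 ± 67.6 CPM in SRSF2 and 3623 ± 41.1 CPM in untreated A549 libraries, and 2908 ± 7.32 CPM in SRSF2 and 3034 ± 10.4 CPM in untreated H1650 libraries (SD, n = 3 each). Among all genes tested, 15.9% fell and 16.4% rose in A549, and 31.3% fell and 31.0% rose in H1650. TCP1 (CCT1) fell in both lines. It had 316, 315 and 301 CPM in A549 SRSF2 libraries, against 353, 337 and 345 CPM in untreated A549 libraries (log2 fold change -0.15, SE 0.036, adjusted p = 0.00126). With SRSF2 the H1650 libraries had 251, 262 and 250.5 CPM of TCP1, against 303, 309.5 and 296 CPM untreated (log2 fold change -0.25, SE 0.036, adjusted p = 1.91e-07). The groups of TCP1 did not overlap in either line. CCT3 (-0.14 in A549, -0.092 in H1650) and CCT6A (-0.094 and -0.12, in the same order) were the other subunits called lower in both. CCT5 fell in H1650, with 806, 785 and 786 CPM in SRSF2 and 865, 869.8 and 856 CPM in untreated libraries (log2 fold change -0.12, SE 0.031, adjusted p = 8.24e-04), and was -0.064 in A549 (adjusted p = 0.119). A transcript on the opposite strand overlaps 30.1% of the exon bases of CCT5. CCT2 was the 1 subunit that rose, in H1650, with 303, 299 and 295 CPM in SRSF2 and 263, 266 and 274 CPM in untreated libraries (log2 fold change 0.16, SE 0.035, adjusted p = 1.97e-04), while in A549 its groups overlapped (log2 fold change -0.033, SE 0.035, adjusted p = 0.510). CCT4 and CCT7 fell in A549 (-0.13 and -0.088) and were not called in H1650 (0.088 and 0.027), and CCT8 was called in neither line (-0.033 in A549 and 0.029 in H1650). Most A549 calls of TRiC subunits were close to the threshold: 2 subunits were called lower without untreated replicate 1, untreated replicate 3, SRSF2 replicate 2 or SRSF2 replicate 3, and 3 without untreated replicate 2. In H1650 the fall of CCT3 was not called without untreated replicate 1, and CCT4 was called higher without SRSF2 replicate 3 (0.13).

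**Figure D3:**
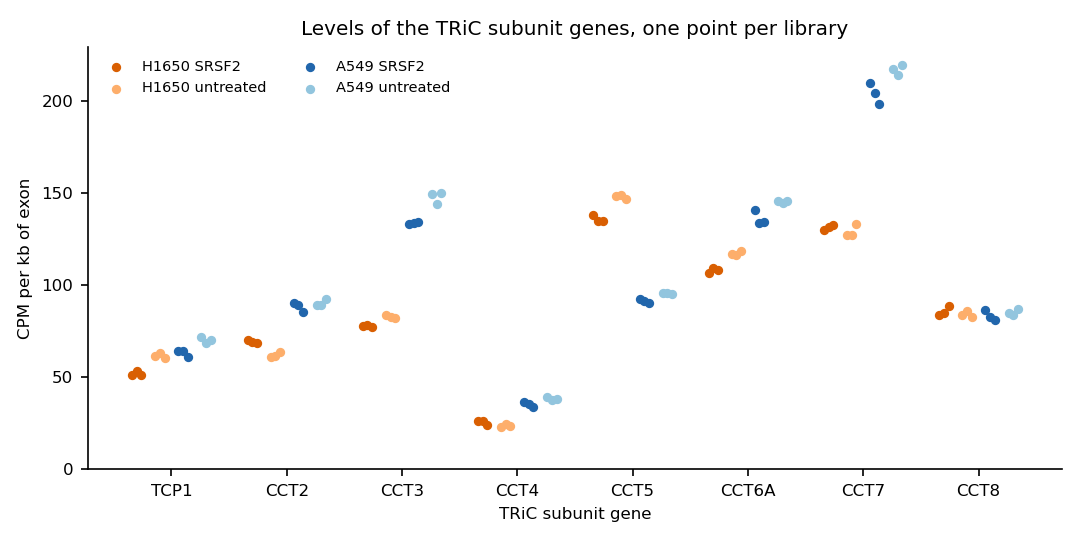
Level of the 8 TRiC subunit genes as CPM per kb of exon, 1 point per library, in the order H1650 SRSF2, H1650 untreated, A549 SRSF2 and A549 untreated for each gene. CCT5 is the 1 subunit higher in untreated H1650 (148 CPM per kb) than in untreated A549 (95.3 CPM per kb), and CCT4 is the lowest in all 4 groups.

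The 2 mitochondrial chaperone genes changed in opposite directions in H1650. HSPA9 (mortalin), the HSP70 of the matrix, had 583, 586 and 574 CPM in H1650 SRSF2 libraries, against 492, 502 and 492 CPM in untreated H1650 libraries (log2 fold change 0.23, SE 0.032, adjusted p = 1.26e-07). Its A549 levels were 824 ± 20.4 CPM in SRSF2 and 796 ± 4.83 CPM in untreated A549 libraries (log2 fold change 0.049, SE 0.032, adjusted p = 0.254). HSPD1 (HSP60), the chaperonin of the matrix, had 362, 373 and 399 CPM in H1650 SRSF2 libraries, against 452, 461 and 456 CPM in untreated H1650 libraries (log2 fold change -0.27, SE 0.035, adjusted p = 2.24e-08). In A549 it was 1077 ± 10.4 CPM in SRSF2 and 1159.9 ± 16.3 CPM in untreated libraries (log2 fold change -0.11, SE 0.034, adjusted p = 0.0141), a call lost without untreated replicate 3 of A549 (-0.095, adjusted p = 0.0726). HSPD1 has 17 pseudogenes named after it, with the same reservation as for HSPA8. DNAJA1 has 6, PTGES3 5 and FKBP4 5, and some other genes have fewer. Only names made of the symbol, P and a number were counted. A count of 0, as for HSP90AA1 and HSP90AB1, thus does not exclude pseudogenes with other names.

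Set side by side, 10 of the 35 genes fell in both lines (28.6%, against 8.69% of all genes tested), 2 rose in both (5.71%, against 9.44%) and 3 fell in A549 and rose in H1650 (8.57%, against 2.84%). Those lower in both are HSPA4, HSPA8, HSP90AB1, HSPB1, DNAJB1, BAG3, TCP1, CCT3, CCT6A and HSPD1. Those higher in both are HSF1 and DNAJB6, and those with opposite calls are HSPH1, DNAJA1 and AHSA1. A further 8 fell and were called in A549 alone (22.9%, against 4.37%). In H1650 alone, 6 were called higher (17.1%, against 18.7%) and 3 lower (8.57%, against 19.5%), and 3 were called in neither line (8.57%, against 29.5%). A missing call in 1 line does not show a difference between the lines. The difference was tested directly, as the log2 fold change in A549 minus that in H1650: 24 of the 35 genes were called, 17 below 0 and 7 above 0, against 23.5% and 24.0% of all genes (47.5% in either direction). The most negative were BAG1 (-0.93, adjusted p = 2.30e-13), HSPH1 (-0.72, adjusted p = 1.45e-13) and HSPA1B (-0.61, adjusted p = 1.38e-07). HSPB1 (0.49, adjusted p = 2.37e-10) and BAG3 (0.41, adjusted p = 2.19e-07) were the most positive of those called, and both fell further in H1650. With log2(FPKM + 1), 11 genes were above 0 and 14 below. When only the 10416 genes with at least 10 CPM in 3 libraries were fitted, 61.8% were called for the difference. The list had 68.6% called in the main fit, so these 2 shares do not compare like with like. The fit of the 10416 genes leaves out DNAJB4 and also called FKBP4 (-0.20, edgeR adjusted p = 0.0321).

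**Figure D4:**
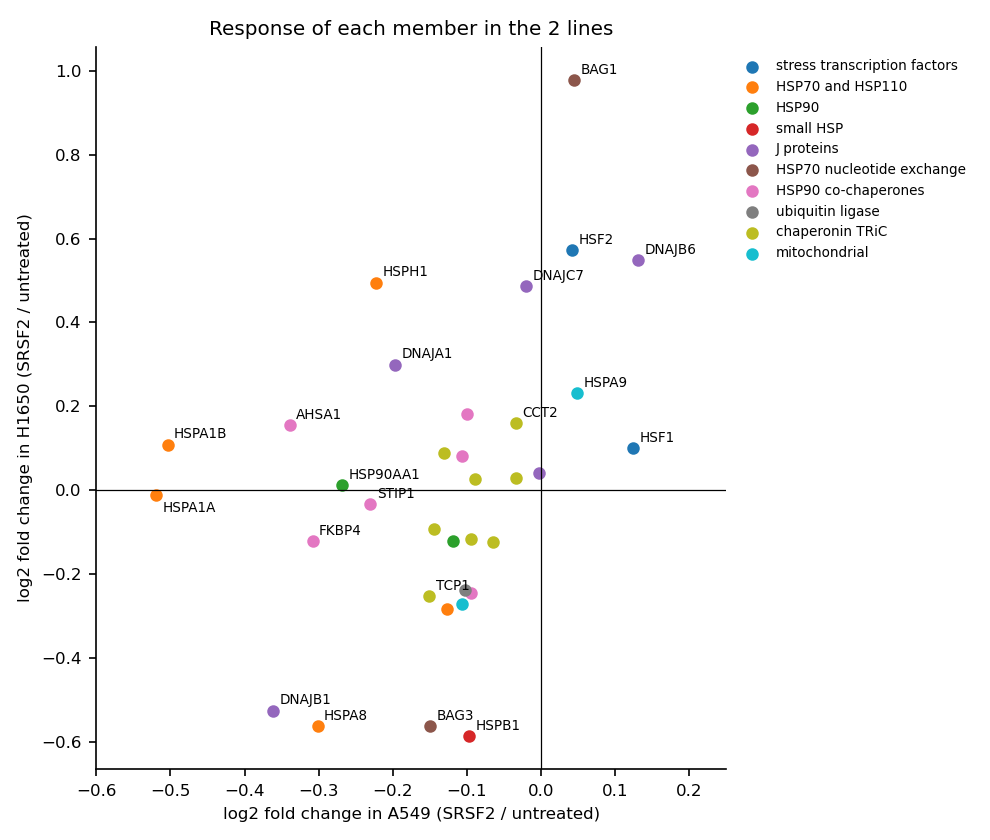
Log2 fold change, SRSF2 over untreated, of each gene in A549 (x axis) and H1650 (y axis), coloured by role and without DNAJB4. HSPA8, DNAJB1, BAG3 and HSPB1 lie low in the lower left, HSPH1, DNAJA1 and AHSA1 in the upper left, and BAG1 at the top (0.046 in A549 and 0.98 in H1650).

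The lines differed in these genes before over-expression. In untreated H1650 against untreated A549 libraries, 8 of the 35 genes were higher and 23 lower, against 40.1% and 42.3% of all genes (82.4% in either direction), with a median log2 fold change of -0.55, against -0.036 over all genes. The called share of the list was 88.6% in the main fit. When only the 10416 genes with at least 10 CPM in 3 libraries were fitted, 90.4% of them were called. That fit leaves out DNAJB4 and also called HSPA1A and CCT8 lower in H1650 (edgeR adjusted p = 0.0133 and 0.0257). The 2 shares thus do not compare like with like. HSPB1 stood highest, with 1943, 1921 and 2072 CPM in H1650 and 324, 324 and 335 CPM in A549 (log2 fold change 2.59, SE 0.036, adjusted p = 7.58e-36, 6.04-fold). HSF1 (1.12), DNAJA2 (0.71), DNAJB6 (0.68), DNAJB1 (0.65), CCT5 (0.63), CDC37 (0.48) and BAG3 (0.30) were the others higher in H1650. The lowest were HSP90AA1, with 1079 ± 20.7 CPM in H1650 and 2766 ± 75.3 CPM in A549 (log2 fold change -1.36, SE 0.033, adjusted p = 1.26e-28), HSPD1 (-1.35), AHSA1 (-1.15) and HSPH1 (-1.12). HSPA1A, DNAJB4, STUB1 and CCT8 were not called in the main fit. Of these, HSPA1A (-0.11, adjusted p = 0.0822) was called lower in H1650 under 6 of 16 alternatives, among them upper-quartile scaling (-0.21, adjusted p = 0.00202) and leaving out H1650 untreated replicate 3 (-0.16, adjusted p = 0.0326). CCT8 was called lower under 2 alternatives and STUB1 higher under 1, and DNAJB4 was called higher without A549 untreated replicate 2 (1.01, adjusted p = 0.0429). Per kb of exon the order of levels also differed. In untreated H1650 HSPB1 led with 1211 CPM per kb, before HSP90AB1 (554), HSPA8 (239.8) and HSP90AA1 (206). In untreated A549 HSP90AB1 led with 814 CPM per kb, before HSP90AA1 (527), HSPA8 (457) and HSPD1 (273), with HSPB1 at 201. The contrast between untreated lines shares its untreated libraries with the SRSF2 contrasts, so no relation between them was computed.

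Other chaperone genes were read from 5 further lists with 92 tested genes. Of all genes tested, 16.4% rose and 15.9% fell in A549, and 31.0% rose and 31.3% fell in H1650. The other cytosolic genes were near these shares in both lines (14.8% and 14.8% in A549, 37.0% and 33.3% in H1650). So were the other HSP90 co-chaperones in H1650 (35% and 30%). In the list of other cytosolic HSP70, HSP40, small HSP and BAG genes, 4 of 27 rose and 4 fell in A549, and 10 rose and 9 fell in H1650. DNAJB2, a J protein known from neurons, rose in both lines, with 376, 382 and 337 CPM in H1650 SRSF2 and 199, 199 and 201 CPM in untreated H1650 libraries (log2 fold change 0.87, SE 0.040, adjusted p = 2.49e-19). The A549 means of DNAJB2 were 77.5 ± 1.86 CPM in A549 SRSF2 and 52.2 ± 0.589 CPM in untreated A549 libraries (log2 fold change 0.57, SE 0.046, adjusted p = 7.14e-12). HSPA2, a testis-enriched HSP70, fell in H1650, with 59.9, 69.6 and 80.1 CPM in SRSF2 and 184, 205 and 203 CPM in untreated libraries (log2 fold change -1.49, SE 0.059, adjusted p = 2.97e-21). In A549 HSPA2 was also lower, with 175, 168 and 172 CPM in SRSF2 and 213, 208 and 198 CPM in untreated libraries. DNAJB5, a J protein related to DNAJB1, rose in H1650, with 24.2, 19.9 and 20.9 CPM in SRSF2 and 8.07, 7.36 and 7.98 CPM in untreated libraries (log2 fold change 1.47, SE 0.093, adjusted p = 1.22e-15). Of 20 other HSP90 co-chaperones, 7 fell and 0 rose in A549, and 7 rose and 6 fell in H1650. FKBP5, an immunophilin of steroid receptors, was 37.4 ± 1.66 CPM in SRSF2 and 47.5 ± 0.237 CPM in untreated A549 libraries (log2 fold change -0.35, SE 0.050, adjusted p = 1.45e-06). In H1650 FKBP5 rose, with 44.1 ± 0.442 CPM in SRSF2 and 38.6 ± 0.424 CPM in untreated libraries (log2 fold change 0.19, SE 0.050, adjusted p = 0.00103). The 7 falls of the list in A549 became 4 without A549 untreated replicate 1. Among 18 prefoldin and TRiC partner genes, 3 rose and 3 fell in A549, and 9 rose and 5 fell in H1650. PDRG1, a prefoldin-like subunit, had 107, 105 and 87.1 CPM in H1650 SRSF2 and 37.1, 37.3 and 40.0 CPM in untreated H1650 libraries (log2 fold change 1.39, SE 0.062, adjusted p = 7.80e-20). The A549 counts of this list were 6 higher without SRSF2 replicate 3, 1 higher without untreated replicate 2, and 1 lower without SRSF2 replicate 1, SRSF2 replicate 2 or untreated replicate 2. In the list of 15 other mitochondrial chaperones and proteases, 2 rose and 1 fell in A549, and 6 rose and 6 fell in H1650. The 2 rises in A549 became 0 or 1 without any single A549 library other than untreated replicate 1. HSCB, a J protein of iron-sulfur cluster assembly, was 21 ± 1.25 CPM in SRSF2 and 9.43 ± 0.540 CPM in untreated H1650 libraries (log2 fold change 1.15, SE 0.083, adjusted p = 3.62e-14). The median log2 fold changes were -0.041 in A549 and 0.10 in H1650 for the other cytosolic genes, and -0.074 and -0.0020 for the other HSP90 co-chaperones. They were 0.011 and 0.086 for the prefoldin and TRiC partner genes, and 0.0054 and 0.0084 for the mitochondrial genes. The 12 chaperones of the endoplasmic reticulum rose in both lines, all 12 in each, with HSPA5 (BiP) at 0.76 in A549 and 1.46 in H1650. The share of all genes called higher was 16.4% in A549 and 31.0% in H1650. With single libraries left out, the count stayed at 12 in A549 and was 11 or 12 in H1650.

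**Figure D5:**
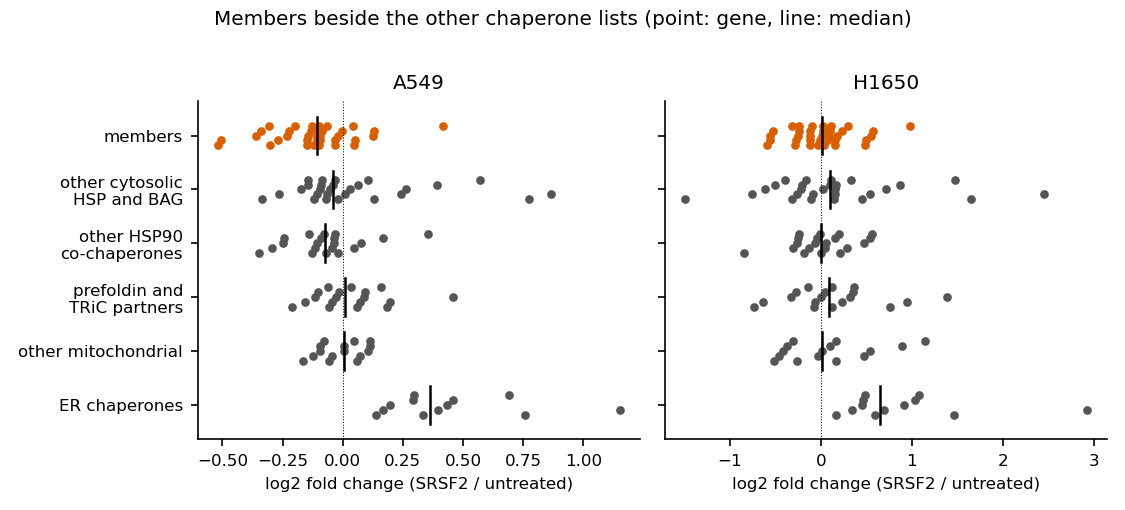
Log2 fold change, SRSF2 over untreated, of the 35 genes (orange, in the row marked members) and of the 5 other chaperone lists (grey) in A549 (left) and H1650 (right), 1 point per gene, with black lines at the medians. The medians of the 35 genes are -0.11 in A549 and 0.012 in H1650, and those of the 12 chaperones of the endoplasmic reticulum 0.36 and 0.65.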

How the data were processed

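Whole-number counts per gene of 12 libraries were deposited by the authors, who used fastp 0.20.1, featureCounts 2.0.0 and STAR 2.7.7a with the build GRCh38, per the submitters' processing notes. How strand and multi-mapped reads were handled, and which annotation was counted, is not given in the sources used here. FPKM values were deposited by the authors as well and imply gene lengths near the genomic span, introns included, so they served in alternatives only. Symbols and coordinates are from GENCODE 29. Counts were fitted with edgeR 4.0.16 in R 4.3.3: the filterByExpr filter, TMM factors, and 1 mean per group over all 12 libraries with quasi-likelihood tests. Tests covered SRSF2 over untreated within A549 and within H1650, the A549 change minus the H1650 change, and the untreated lines (H1650 over A549). Benjamini-Hochberg adjustment ran over all 15991 genes, with calls at an adjusted p under 0.05. SE, the approximate standard error, is the size of the log2 fold change divided by the root of F. Per-length levels use the union of GENCODE exons. The members, the other lists and the markers were chosen with earlier results of these data known. Any member could be named; of the other lists, up to 3 genes per list and line with the largest change, at an adjusted p under 0.05, at least 5 CPM and groups that do not overlap. Alternatives were median-ratio and upper-quartile scaling, DESeq2 1.42.0, limma-voom and limma-trend on log2(FPKM + 1) and log2(FPKM + 0.1) (limma 3.58.1), no filter, at least 10 CPM in 3 libraries, the compared groups alone, the replicate number as a block and each library left out. No replicate pair agreed within sampling noise (chi-square per degree of freedom 2.29 to 8.11). The pipeline was tested on simulated data.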

Additional observations from a re-analysis of the deposited data

Results flagged for a closer look

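The response to SRSF2 differed between the lines, by the edgeR test of the difference of the log2 fold changes (A549 minus H1650, adjusted p under 0.05), for 24 of the 35 genes, against 47.5% of all genes. Among the 10416 genes with at least 10 CPM in 3 libraries, fitted alone, 61.8% were called. That separate fit leaves out DNAJB4 and also called FKBP4 (-0.20, edgeR adjusted p = 0.0321). The difference was negative for BAG1 (-0.93), HSPH1 (-0.72), HSPA1B (-0.61), HSF2 (-0.53), HSPA1A (-0.51), DNAJC7 (-0.51), DNAJA1 (-0.50), AHSA1 (-0.49) and DNAJB6 (-0.42). Smaller negative values were found for CHORDC1 (-0.28), HSP90AA1 (-0.28), CCT4 (-0.22), STIP1 (-0.20), CCT2 (-0.19), CDC37 (-0.19), HSPA9 (-0.18) and CCT7 (-0.11). The difference was positive for HSPB1 (0.49), BAG3 (0.41), HSPA8 (0.26), HSPD1 (0.16), DNAJB1 (0.16), HSPA4 (0.16) and PTGES3 (0.15). The call of CCT7 (adjusted p = 0.0427) was lost under 14 of 21 alternatives, those of DNAJB1 and PTGES3 under 3 each, those of CCT4 and CDC37 under the 2 FPKM settings, and that of HSPA8 with DESeq2 (adjusted p = 0.0546).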

How the results depend on the processing

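No called gene of the list changed sign under any alternative. The 23 genes called in A549 became 16 to 22 when single libraries were left out, and the 24 in H1650 became 22 to 26. The 2 genes higher in A549 (HSF1 and DNAJB6) became 1 with median-ratio scaling, 1 with DESeq2 and 0 with log2(FPKM + 1), and 0 to 2 with single libraries left out: 0 without A549 SRSF2 replicate 3, and 1 without A549 untreated replicate 2 or 3. The 7 genes above 0 in the difference of the contrasts became 11 with both FPKM settings; the cause was not tested. In A549 the calls of HSPB1, CCT6A, CCT7 and CDC37 were each lost in 5 of the 6 leave-outs and that of CCT4 in 4. With log2(FPKM + 1) the HSP90 co-chaperones of the list gave 0 higher and 3 lower in H1650, against 2 and 1, and the other cytosolic genes 6 higher, against 10. PTGES3 was called lower in A549 under 6 alternatives. Upper-quartile scaling put the median of all genes at -0.13 between the untreated lines, against -0.036. Same-numbered libraries of different groups did not deviate together (correlations -0.020 to 0.024), and were not treated as paired; with the replicate block 23, 25, 23 and 32 genes were called in A549, in H1650, for the difference and between the untreated lines, against 23, 24, 24 and 31, and the block added calls of HSPA1B in H1650 (0.10, adjusted p = 0.0305) and HSPA1A between the untreated lines (-0.12, adjusted p = 0.0197). DNAJB4, with 6 to 21 counts per library, was called in 1 alternative, between the untreated lines.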
